A study of Mus musculus with 4 samples.

Results

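The 41 genes described here are the listed members of 5 families of developmental homeobox and paired-box transcription factors: 9 Pax, 8 Lhx, 13 Nkx, 5 Six-family and 6 Irx genes, out of 21627 protein-coding genes on the autosomes and X. Each was taken by name, and CpGs were collected from 5 kb before to 5 kb after its RefSeq start and end in the mouse mm10 assembly. The rule uses names and positions only. Pax proteins bind DNA through a paired domain, Lhx proteins carry LIM domains beside a homeodomain, and Nkx, Six-family and Irx proteins are homeodomain factors. They direct the patterning of brain, eye, kidney, heart, thyroid, pancreas and muscle, and most are silent in embryonic stem cells. In these cells such genes typically sit in broad, CpG-rich stretches that carry little DNA methylation and are bound by Polycomb proteins and TET1, a dioxygenase that oxidises 5-methylcytosine.

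Genomic DNA of mouse embryonic stem cells with the genotype Ogt fl/fl was sequenced after bisulfite treatment, in 2 libraries of induced knockout cells (Ogt iKO) and 2 of controls. Ogt encodes O-GlcNAc transferase, which adds a single sugar to many nuclear proteins. The iKO cells had been cultured for 6 days with 4-hydroxytamoxifen (4-OHT) and sorted for YFP, and the controls carried the same floxed alleles and were grown without 4-OHT. Both were grown on mitomycin-treated fibroblast feeders in LIF and serum replacement, and sorting was meant to remove the feeders. The labels' protocol gives the surface antibodies for stem cells and feeders the opposite way to their usual use, so how well feeders were removed is uncertain. Loss of Ogt, exposure to 4-OHT and the YFP sort therefore cannot be told apart. The labels do not say whether replicates were separate cultures, so tests measure only the spread between these samples. Bisulfite leaves 5-methylcytosine and 5-hydroxymethylcytosine alike unconverted, and a methylation level here is the share of reads, in percent, that kept a C at a CpG.

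The libraries held 64273609 to 79929994 reads over CpGs, a mean of 3.35 to 4.04 reads per CpG, with both iKO libraries deeper than both controls. Starts of 5 of 7 stem-cell markers (Pou5f1, Nanog, Zfp42, Tdgf1 and Dppa4) had a mean level of at most 7.98%, while Esrrb stood at 61.6% and Tdh at 27.3%. The starts of the 6 fibroblast markers ranged from 3.40% at Twist2 to 80.4% at Postn. Groups were apart, with iKO lower, at the starts of Pou5f1, Nanog, Zfp42, Dppa4, Col1a1, Col3a1 and Thy1. Of all gene starts in the RefSeq promoter table, 33.6% were lower with groups apart and 6.65% higher. Dppa4, Col1a1 and Thy1 had no start there and were placed at their CpG-denser gene end. At Nanog, for example, levels were 3.45% and 4.44% against 9.30% and 14.7%. At Col3a1 they were 56.2% and 57.7% against 75% and 95.7%, over only 7 CpGs. Differences were above 0, with overlapping groups, at Tdgf1, Tdh, Col1a2 and Twist2. The levels of both lists overlapped, and the part of remaining feeder cells in the results was not tested. Of mitochondrial C or T reads, which should be unmethylated, 0.253% to 0.307% were unconverted, highest in iKO replicate 1.

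CpG-rich promoters of 5 members, 1 per family, are shown because such stretches, rich in CG, are where the members carried the least methylation. Each is the 250 bases before the gene start, from RefSeq (GRCm38.p6), 5′ to 3′ on the gene's strand, with every CG in capitals. For each family the member with the most CpGs read in every library was taken, among those whose start is the outer end of the gene. Pax5 is at chr4:44710695-44710944, Lhx1 at chr11:84525535-84525784, Nkx3-2 at chr5:41764221-41764470, Six2 at chr17:85688255-85688504 and Irx3 at chr8:91801655-91801904, all on the minus strand.
Pax5: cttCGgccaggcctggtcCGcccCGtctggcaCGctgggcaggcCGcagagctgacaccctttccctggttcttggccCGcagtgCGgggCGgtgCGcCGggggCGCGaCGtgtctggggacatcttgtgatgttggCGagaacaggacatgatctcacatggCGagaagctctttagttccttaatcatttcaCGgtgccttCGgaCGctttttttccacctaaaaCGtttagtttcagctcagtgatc
Lhx1: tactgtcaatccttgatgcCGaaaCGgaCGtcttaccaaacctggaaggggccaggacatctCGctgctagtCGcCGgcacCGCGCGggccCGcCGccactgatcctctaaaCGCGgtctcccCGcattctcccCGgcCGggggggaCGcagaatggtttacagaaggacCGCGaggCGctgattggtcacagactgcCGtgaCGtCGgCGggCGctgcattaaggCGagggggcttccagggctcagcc
Nkx3-2: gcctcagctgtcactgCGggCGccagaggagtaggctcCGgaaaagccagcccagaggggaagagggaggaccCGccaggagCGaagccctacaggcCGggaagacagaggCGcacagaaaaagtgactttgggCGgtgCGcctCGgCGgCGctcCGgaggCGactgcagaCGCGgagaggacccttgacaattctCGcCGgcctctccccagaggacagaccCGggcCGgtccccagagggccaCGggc
Six2: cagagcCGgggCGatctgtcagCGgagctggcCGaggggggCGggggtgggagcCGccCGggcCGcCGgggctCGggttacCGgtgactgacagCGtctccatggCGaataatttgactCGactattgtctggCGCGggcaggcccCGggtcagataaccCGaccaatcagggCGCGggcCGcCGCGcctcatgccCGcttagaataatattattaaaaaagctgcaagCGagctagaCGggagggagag
Irx3: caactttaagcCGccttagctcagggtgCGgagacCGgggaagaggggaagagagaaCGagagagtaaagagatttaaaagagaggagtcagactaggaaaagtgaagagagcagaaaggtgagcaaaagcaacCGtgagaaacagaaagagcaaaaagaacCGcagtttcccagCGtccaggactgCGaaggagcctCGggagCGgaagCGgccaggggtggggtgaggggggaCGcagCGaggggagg
The 33 members with an entry in the RefSeq promoter table had a median of 14 CGs in these 250 bases, against 10 over all 17273 promoters, and 25 of the 33 had at least 10 against 51.0% of all promoters. The Six2 stretch had no methylated read in any library, at 14 CpGs with 14 to 46 reads per library. That of Lhx1, with 26 CpGs, was at 1.67% in iKO replicate 2 and 0% in the other 3 libraries. Irx3 and Nkx3-2 were likewise at 0% in 3 libraries, and reached 1.37% and 1.92% in control replicate 1. The Pax5 stretch was the exception among the 5, with 5.36% and 13.7% in iKO cells against 4.65% and 0% in controls (replicate 1 first), over 18 CpGs and 43 to 56 reads per library. Both iKO values lay above both controls there, by 7.22 points, a difference that rests on few reads.

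**Figure D1:**
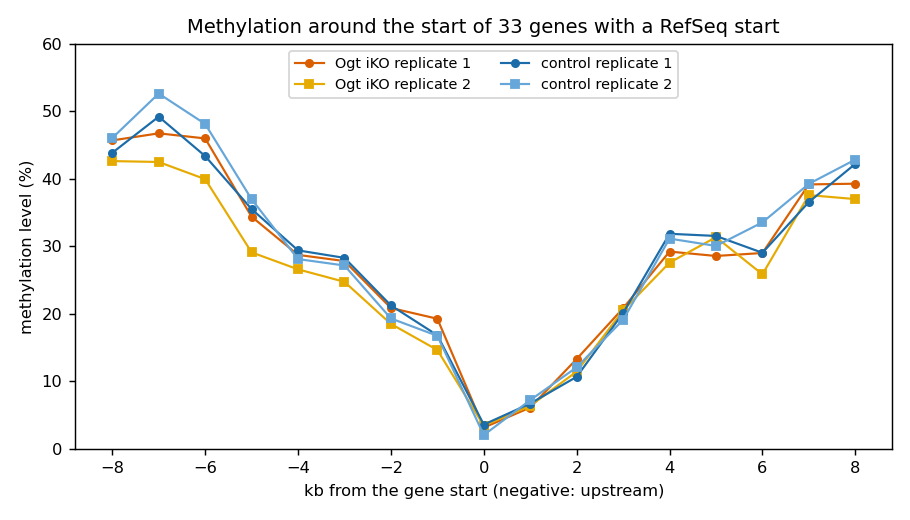
Methylation level in percent (y) in 1 kb steps around the gene start (x, kb, negative upstream) for the 33 members with a RefSeq start, 1 line per library. Each line falls to between 2.03% and 3.59% at the start, and the lines of the 2 groups cross repeatedly along the profile.

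Over the whole windows (19419 CpGs read in every library), the 41 genes were less methylated than protein-coding genes in general. They also differed less between the groups in percentage points. The 2 iKO libraries had pooled levels of 37.8% and 35.9%, and the 2 controls 39.5% and 41.4%, each in the order of the replicate numbers, as in all pairs of values from here on. Both iKO libraries were below both controls, with 36.9% ± 1.35 (SD, n = 2) against 40.4% ± 1.32 (SD, n = 2), a difference of -3.57 points. The two-sided exact permutation test over the 6 arrangements of the libraries gave p = 0.33, the smallest it can give, so no difference of library values in this design can pass 0.05. The median gene window differed by -2.48 points among members and by -7.74 points among all 21252 windows with enough CpGs to test.

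Single genes were mixed. Groups did not overlap, with iKO lower, in 20 of 41 member windows, against 85.8% of all gene windows, and they overlapped in 17. The reverse order, iKO higher, was found in 4 windows (Nkx2-1, Nkx2-2, Nkx6-1 and Six3), against 0.419% of all, with a near tie of 1 iKO and 1 control library at Six3. Differences were above 0 in 10 of 41 members and in 1.98% of all windows. In the test across all windows, a quasi-binomial model with dispersion moderated by limma, 2 member windows were called at an adjusted p under 0.05 and at least 10 points, Six4 and Irx6, against 14.5% of windows genome-wide. On the adjusted p alone, 6 members passed (Pax5, Pax7, Lhx4, Nkx6-2, Six4 and Irx6), all lower, against 45.4% of all windows.

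**Figure D2:**
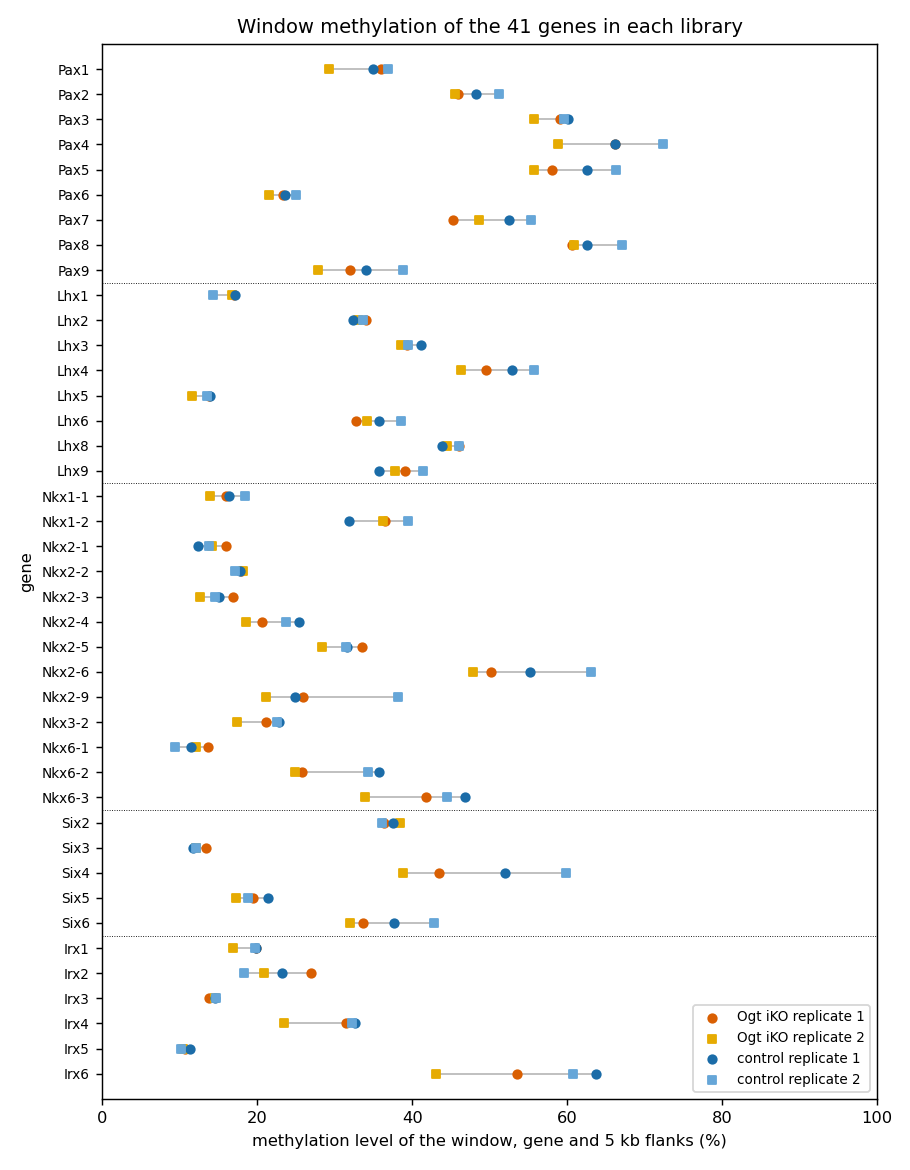
Methylation level in percent (x) of the window of each gene (y), with 1 point per library and a grey line over their range; dotted lines part the families. Six4 and Irx6, the called windows, show iKO points well to the left of the controls, and the iKO points lie to the right of both controls in Nkx2-1, Nkx2-2 and Nkx6-1, and in Six3 by a near tie.

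Pax genes, which set up eye, kidney, muscle and B-cell programmes, were the most methylated family and had lower iKO means in all 9 windows. This is near the state of all gene windows, of which 1.98% had a difference above 0. The family level was 49.4% and 47.9% in iKO cells against 52.5% and 55.3% in controls, a difference of -5.32 points. Groups did not overlap, with iKO lower, in 7 of the 9 windows, against 85.8% of all gene windows. Pax5, the B-lineage commitment factor (chromosome 4, 44524748 to 44710694), had the largest difference of the family, with 58.1% and 55.8% in iKO cells and 62.6% and 66.3% in controls, -7.49 points (limma-moderated adjusted p = 0.00326, but 0.0691 by limma on logit levels). Pax7, a regulator of muscle satellite cells, followed with 45.3% and 48.6% against 52.6% and 55.3% (-6.97 points, adjusted p = 0.00912, but 0.105 without iKO replicate 1). Both are below the 10-point limit of a call. Pax6, the eye and forebrain regulator, differed least, with 23.3% and 21.5% against 23.6% and 25.0% (-1.92 points).

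Within the Lhx family, which specifies neuron types, limb and pituitary, the level was 35.0% and 34.1% in iKO cells against 36.1% and 37.5% in controls (-2.22 points). Only 3 of 8 windows had groups apart, all lower, against 85.8% of all gene windows. Lhx4, needed for pituitary and motor neuron development, showed 49.5% and 46.2% against 52.9% and 55.7% (-6.45 points, adjusted p = 0.0297, but 0.288 without iKO replicate 2 and 0.107 without control replicate 2). Lhx6, which guides cortical interneurons, showed 32.7% and 34.2% against 35.7% and 38.5% (-3.68 points). Lhx1, a factor of head and kidney formation, lay the other way, with 17.0% and 16.7% against 17.1% and 14.3%, and its groups overlapped (1.12 points).

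In the Nkx family, which includes regulators of thyroid and lung (Nkx2-1), heart (Nkx2-5) and pancreas and ventral spinal cord (Nkx2-2, Nkx6-1), the level was 24.6% and 21.7% in iKO cells and 24.7% and 26.0% in controls (-2.19 points). iKO replicate 1 lay only just below control replicate 1, and the difference was -0.738 points without iKO replicate 2, -3.64 without iKO replicate 1 and -0.0936 in gene bodies without flanks. Windows were lower with groups apart in 6 of 13 genes, against 85.8% of all gene windows, and higher in 3, against 0.419%. Nkx2-6, expressed in pharyngeal pouches, had 50.2% and 47.9% against 55.3% and 63.1% (-10.2 points, adjusted p = 0.0698). Nkx6-2, a factor of neural tube and oligodendrocytes, had 25.8% and 24.8% against 35.7% and 34.3% (-9.68 points, adjusted p = 0.0223, but 0.185 without iKO replicate 2 and 0.106 without iKO replicate 1). Nkx6-1 had the most positive difference of the family, with 13.7% and 12.1% against 11.4% and 9.41% (2.45 points). Its paralog Nkx6-3 was lower, with 41.8% and 33.9% against 46.8% and 44.5% (-7.87 points).

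Six-family genes, which act with Eya and Dach cofactors in eye, kidney and muscle, included both the most negative window difference of all members and windows that were not lower. The family level was 29.0% and 27.8% in iKO cells and 31.8% and 32.9% in controls (-3.97 points). Six4, a muscle and kidney factor at 73099609 to 73114031 on chromosome 12, was at 43.5% and 38.8% in iKO cells and 52.0% and 59.9% in controls, 41.1% ± 3.33 against 56.0% ± 5.56 (SD, n = 2 each). The difference of -14.8 points was called (limma-moderated adjusted p = 0.00920, but 0.0854 without iKO replicate 2). Six6, an eye and pituitary gene in the same cluster, had 33.6% and 32.03% against 37.6% and 42.8% (-7.42 points). On chromosome 17, Six3 (forebrain and eye) and its neighbour Six2 (nephron progenitors) were not lower: Six3 had 13.4% and 12.1% against 11.8% and 12.1% (0.81 points, with iKO replicate 2 and control replicate 2 nearly tied), and Six2 had 36.4% and 38.4% against 37.5% and 36.1%, with overlap.

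The Irx genes, which pattern heart and nervous system, lie in 2 clusters of 3 genes, and the differences were uneven within each cluster. The family level was 23.8% and 20.01% in iKO cells and 24.6% and 23.9% in controls (-2.32 points). Without iKO replicate 2 it was -0.420, without iKO replicate 1 -4.21, and in gene bodies without flanks -0.402 points, with overlapping groups in the last. On chromosome 8, Irx6 (92674289 to 92680956) was at 53.5% and 43.1% in iKO cells and 63.8% and 60.8% in controls, 48.3% ± 7.38 against 62.3% ± 2.14 (SD, n = 2 each). The difference of -14.0 points was called (limma-moderated adjusted p = 0.0238), and the call was lost without iKO replicate 2 (-8.74 points, adjusted p = 0.331) and in the gene body without flanks (0.153). Irx3 and Irx5 in the same cluster differed by -0.378 and -0.238 points, with overlapping groups. On chromosome 13, Irx4, a ventricular heart gene, had 31.4% and 23.5% against 32.6% and 32.2% (-4.96 points), Irx1 differed by -1.41 points with overlap, and Irx2 had 27.0% and 20.8% against 23.2% and 18.3% (3.14 points, also with overlap).

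Other clusters that share neighbours were mixed as well. On chromosome 12, Pax9 was lower in both iKO libraries (-6.58 points) while Nkx2-1 was higher (15.9% and 14.1% against 12.4% and 13.7%, 1.95 points) and Nkx2-9 overlapped. On chromosome 2, Nkx2-4 was lower (20.6% and 18.5% against 25.4% and 23.8%, -5.04 points), Nkx2-2 slightly higher (0.586 points) and Pax1 overlapped. No CpG was shared between member windows.

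The windows were next divided by where their CpGs lay. A low-methylation domain was defined as a run of at least 2 bins of 1 kb whose mean over all 4 libraries was under 20%. Such domains covered 258 of the 1246 member bins with a level (20.7%), against 2.98% of bins of other protein-coding genes, and made up 11.4% of Pax, 22.3% of Lhx, 36.6% of Nkx, 32.4% of Six-family and 35.2% of Irx bins. The windows touched 61 domains with a median length of 4 kb, against 2 kb over all gene windows. The longest, of 14 kb, was at Six3. No domain was found in the windows of Pax1, Pax4, Lhx3, Nkx2-6, Nkx6-3 and Irx4.

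Member windows were less methylated in iKO cells outside the domains but not inside them. Outside, the level was 55.5% and 52.9% in iKO cells and 58.9% and 61.6% in controls, a difference of -6.02 points (pooled SD 1.90, n = 2 per group, exact permutation p = 0.33). Bins of other protein-coding genes outside domains differed by -8.53 points. As a ratio of iKO to control, the levels outside were 0.900 in members and 0.885 in other genes. Inside, the member level was 6.03% and 5.41% in iKO cells and 5.41% and 4.57% in controls, a difference of 0.733 points (pooled SD 0.523, exact permutation p = 0.33). The order inside hung on a near tie of iKO replicate 2 with control replicate 1, and the difference ranged from 0.312 to 1.15 points when each library was left out. It fell to 0.311, with overlapping groups, when domains were defined in the iKO libraries alone, and rose to 1.32 when they were defined in the controls alone. Groups overlapped as well with all listed CpGs (0.577), with depth corrected for C/T variants (0.731) and with a 30% limit for domains (0.651). On the scale of log2 odds the change was 0.21 inside and -0.36 outside, with the same signs as in percentage points. Leaving out control replicate 2 gave 0.083 inside, leaving out iKO replicate 1 gave 0.13, and leaving out control replicate 1 gave 0.34. By family, the difference inside was 1.11 percentage points in Pax, 1.09 in Lhx, 0.270 in Nkx, 0.655 in Six-family and 0.370 in Irx genes. The groups overlapped in Nkx and Irx, and were apart in Six-family genes only by a near tie of iKO and control replicates 2.

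Pooled over all lengths, domains of other protein-coding genes differed in the opposite direction from those of the members. They held 4.48% and 4.33% in iKO cells against 5.63% and 5.54% in controls, -1.18 points. The member difference exceeded this by 1.92 points (pooled SD 0.444, exact permutation p = 0.33, the smallest possible), and by 1.54 to 2.29 points with a library left out. The direction was not opposite at every length. In domains of 2 bins both were lower, by -0.528 points in members, with overlapping groups, and by -1.32 in other genes. Among domains of 3 to 4 bins the values were 0.776 in members and -1.13 in other genes, and among those of 5 to 6 bins 1.28 and -0.985. Among domains of at least 7 bins they were 0.630 and -0.309, the members' groups overlapping. The gap between members and other genes also had overlapping groups at 2 bins (0.789 points) and at 7 bins or more (0.939). By single domain, 22 of 61 in member windows were higher in both iKO libraries, against 8.6% of the 10101 domains of all gene windows, and 7 were lower, against 33.2%. By 1 kb bin, 63 of the 258 inside bins were higher and 21 lower, against 9% and 22.9% of inside bins of all gene windows. Outside, 73 of 988 bins were higher and 337 lower, against 3.91% and 42.2%.

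Summed by gene, 12 of the 35 members with a domain had both iKO libraries above both controls inside it, against 7.58% of all genes with one, and 4 had both below (Pax8, Nkx2-9, Nkx3-2 and Six4), against 34.5%. Pax3, a neural crest and muscle precursor gene, had the largest difference, with 12.2% and 11.9% in iKO cells and 7.64% and 7.77% in controls. Lhx2, an eye and forebrain gene, had 6.24% and 8.34% against 3.21% and 4.29%. Nkx2-5, the cardiac regulator, had 11.8% and 12.9% against 9% and 9.93% over 3 bins, but the groups overlapped in each of its domains taken whole. The other 9 were Pax2, Pax5, Pax6, Lhx1, Lhx8, Nkx6-1, Six3, Six6 and Irx3, with differences of 0.908 to 2.32 points. Pax8, a thyroid and kidney factor, went the other way, with 6.06% and 7.41% against 12.4% and 9.62%. The difference inside was above 0 in 24 of the 35, against 29.2% of all genes with a domain. Outside the domains 0 of 41 members had both iKO libraries above both controls, against 0.378% of all genes, and 26 had both below, against 87.6%.

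**Figure D3:**
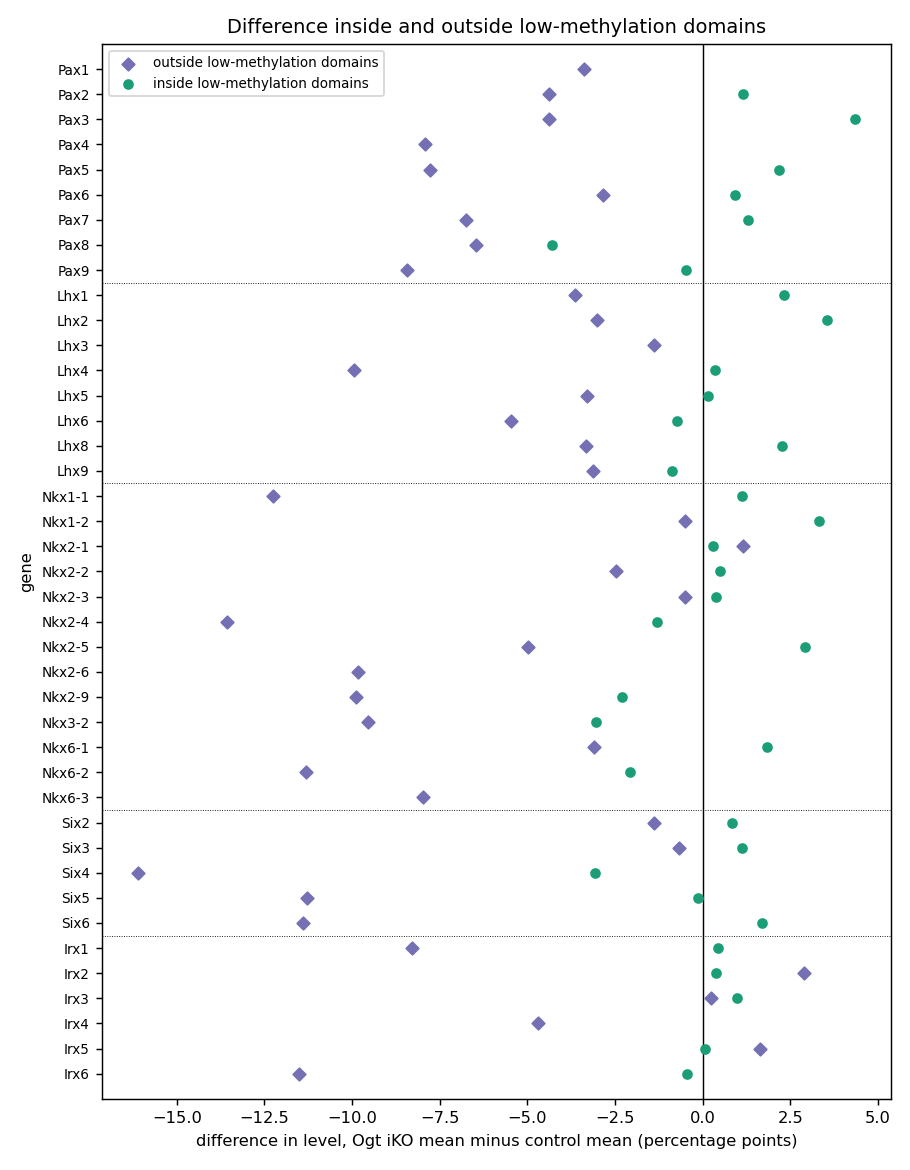
Difference in methylation level, iKO mean minus control mean in percentage points (x), for each gene (y) inside (circles) and outside (diamonds) low-methylation domains. Diamonds lie left of 0 for 37 of 41 genes, and circles lie right of 0 for 24 of the 35 genes that have a domain.

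Members also differed from other genes in the bins that flank the domains. Some of these member bins lay between neighbouring domains of the same gene, as at Pax2, Pax3, Pax7 and Lhx2. How often this held in other genes was not tested. In the 97 member bins directly outside a domain border the level was 37.0% and 32.9% in iKO cells and 35.0% and 38.0% in controls, which overlap (-1.57 points, exact permutation p = 0.667; 0.475 points without iKO replicate 2). The value depended on the domain rule. With domains from the controls alone it was -3.55 points with groups apart. Under a 30% limit it was -4.40 and under a 10% limit -0.0677, both with overlapping groups. In 17703 such bins of other genes the level was 44.8% and 43.5% against 53.1% and 55.9% (-10.3 points). The gap between them was 8.77 points (pooled SD 1.38, exact permutation p = 0.33) and 7.39 to 10.1 points with each library left out. The gap was 6.72 points under a 30% limit and 6.79 with domains from the controls alone. At 3 kb it was nearly as wide, 8.43 points, with 5.71 to 11.1 points when each library was left out, and it was the wider one without iKO replicate 1 or control replicate 1. The member bins were less methylated in the controls too, and as a ratio of iKO to control the levels directly outside the border were 0.957 in members and 0.810 in other genes. From 5 kb outside the border these ratios were 0.892 and 0.888.

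The same gap was seen beside long domains. Next to domains of at least 5 bins the member bins were at 32.9% and 29.9% against 31.7% and 32.3% (-0.587 points, 42 bins), and those of other genes at 38.8% and 37.0% against 46.4% and 48.2% (-9.38 points, 947 bins). The gap did not narrow steadily with distance. At 2 kb outside they differed by -4.88 points against -10.1, at 3 kb by -1.42 against -9.85, at 4 kb by -4.51 against -9.73, and from 5 kb by -7.21 against -8.40, where the gap was smallest (1.19 points). The member value at 3 kb was -0.437 without control replicate 1, -2.40 without control replicate 2 and -0.291 as an unweighted mean, with overlapping groups in the last. Inside, 2 kb from the border, members were higher in both iKO libraries, 5.07% and 4.91% against 4.11% and 3.57% (79 bins), while other genes differed by -0.385 points. This member difference, 1.15 points, fell to 0.488 under a 30% limit, with overlapping groups, and to 0.657 with domains from the iKO libraries alone. At the other distances inside, the members' differences were 0.759 at 1 kb, 0.167 at 3 kb, 0.926 at 4 kb and -0.188 from 5 kb, with overlapping groups at 1 kb, 3 kb and from 5 kb. At 4 kb the groups also overlapped with thinned reads (0.586) and as an unweighted mean (0.104). Without control replicate 2 the values at 1 kb and 4 kb were 0.186 and 0.141, and without control replicate 1 they were 1.33 and 1.71. At 1 kb it was 0.392 without iKO replicate 1.

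**Figure D4:**
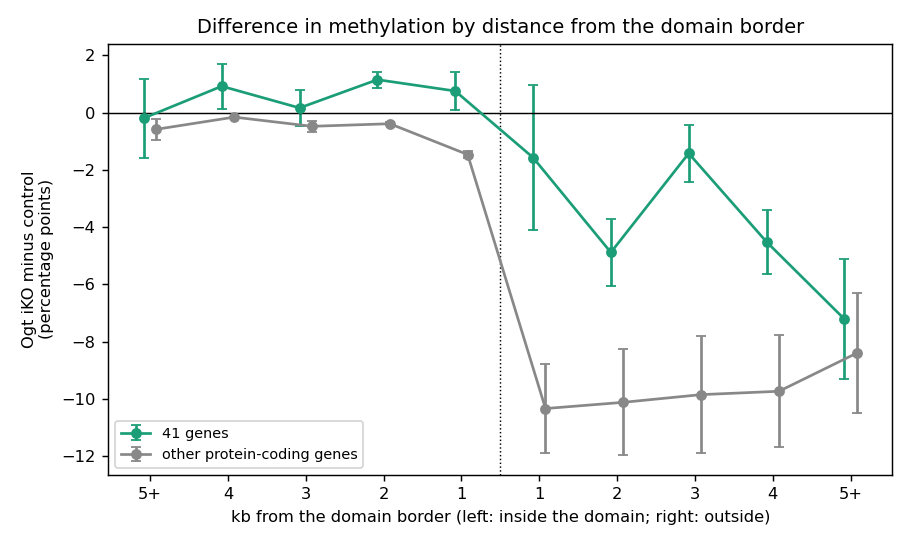
Difference in methylation level, iKO minus control in percentage points (y), by distance from the domain border in kb (x; inside on the left, outside on the right), for the 41 genes and for other protein-coding genes; bars are the pooled SD of the libraries within groups (n = 2 each). Outside the border the curves are far apart at 1 kb (-1.57 and -10.3 points) and 3 kb (-1.42, or -0.437 to -2.40 with a library left out, and -9.85) and near each other from 5 kb (-7.21 and -8.40).

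By family, the bins directly outside the border differed by 0.393 points in Pax, 0.798 in Lhx, -2.77 in Nkx, -6.01 in Six-family and -3.78 in Irx genes. The groups overlapped in Pax, Lhx and Nkx and were apart in Six-family and Irx. Of the 35 genes with such bins, 10 were lower with groups apart, against 60.7% of all 10695 genes with such bins, 5 were higher, against 2.2%, and 20 overlapped. The most negative differences were at Irx6 (29.7% and 42.1% against 56.4% and 62.3%) and Nkx1-1 (44.3% and 38.6% against 56.0% and 72.5%). Six4, Six5 and Six6 differed by -20.8, -16.4 and -19.2 points, while Six3 differed by 0.651 and Six2 by 6.46 points with overlapping groups. Pax7 had the largest positive difference, with 32.1% and 33.1% against 20% and 19.4%. Each of these rests on 1 to 3 bins.

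CpG number gave a related split, as 145 of the 172 member bins with at least 40 CpGs lay inside domains. Member bins with 10 to 19 CpGs were at 60.04% and 57.6% in iKO cells against 64.2% and 67.1% in controls (-6.83 points), and those with under 10 CpGs differed by -6.65 points (-4.25 without control replicate 2). Bins with 20 to 39 CpGs were at 26.6% and 25.1% against 27.5% and 28.2% (-1.997 points, -1.28 without iKO replicate 2), where those of other genes were at 50.4% and 48.4% against 56.5% and 58.9% (-8.29 points). Bins with at least 40 CpGs were at 5.74% and 5.07% against 5.66% and 5.13%, which overlap (0.0150 points), against -1.15 points in other genes. All families had lower iKO means at 10 to 19 and 20 to 39 CpGs, from -5.44 (Nkx) to -10.2 points (Six-family) in the former and from -0.239 (Lhx) to -4.49 points (Irx) in the latter. At 20 to 39 CpGs the groups overlapped in Lhx and Six-family genes. The 11 Irx bins with under 10 CpGs went the other way, at 70.4% and 69.2% against 62.3% and 69.0%.

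Gene starts, from 1000 bases before to 500 after, were at 7.21% and 5.72% in iKO cells and 6.99% and 6.84% in controls, with overlap. Of the 33 members with a start in the RefSeq promoter table, 9 were higher in both iKO libraries, against 6.65% of all starts in that table, and 4 were lower, against 33.6%. Pax2, an optic stalk and kidney regulator, had the largest positive difference, with 21.6% and 24.1% against 9.57% and 8% over 31 CpGs. This start lay outside the gene's 3 domains, which pooled were at 5.20% and 4.39% against 4.24% and 3.04%. Nkx6-3, placed at its CpG-denser gene end for lack of a listed start, had the most negative one, with 56.3% and 53.2% against 63.6% and 65.9%. The number of member bins under 20% was 303 and 298 in iKO cells and 292 and 317 in controls, and the iKO values lay between those of the controls. Over all gene windows it was 41755 and 44410 against 34526 and 33963. With a limit of 10% in place of 20%, the member number was lower in both iKO libraries than in both controls, by 17 bins on average (two-sided exact permutation p = 0.33, the smallest that 2 against 2 libraries allow).

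No single 1 kb bin of a member was called among 1213 tested, and only 1 of 1449823 bins was called genome-wide (6.9e-05%). At an unadjusted p under 0.05 there were 120 member bins, against 12.9% of all. edgeR also called 0 member bins, against 23 of all, and limma on logit levels called 0 of either. At an unadjusted p under 0.05, edgeR had 110 of the 1213 member bins and 174960 of all 1449823. For limma on logit levels these numbers were 92 and 154286. In simulated data of this depth, none of 100 bins of 1 kb changed by 60 points was recovered. Only 100 bins per size of change, among 1449823, were altered there, and the adjusted p is harder to pass when few bins change. The simulation therefore does not show how often such bins could be called in these data. In 2 kb bins the dispersion was moderated more strongly (prior degrees of freedom 212, against 12.6 in 1 kb bins). There 12 of 698 member bins were called, all lower, against 1.77% of all tested. They lay at 6 genes: 4 at Pax5, 3 at Six4, 2 at Pax3 and 1 each at Lhx4, Nkx2-6 and Nkx6-2.

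The number of called 2 kb bins was close to the genome-wide share, so having such bins is not particular to these genes. Falls of this size also require high levels in the controls, so those levels follow from the call. The largest decrease was in the flank of Nkx2-6 (chromosome 14, 69178001 to 69180000, 15 CpGs, 44 to 74 reads per library), with 52.7% and 63.3% in iKO cells against 93.2% and 95.9% (-36.5 points, limma-moderated adjusted p = 0.000648). At Six4, 2 adjoining bins at the lower-coordinate end of the gene (chromosome 12, 73096001 to 73100000) had 31.1% and 37.1% against 58.9% and 61.8%, and 52.2% and 54.0% against 77.0% and 82.6%. Inside the Pax5 gene, the bin at 44554001 to 44556000 on chromosome 4 had 38.6% and 51.9% against 66.7% and 74.2% (-25.2 points, adjusted p = 0.0439), and that at 44546001 to 44548000 had 52.5% and 54.7% against 75.0% and 81.0% (-24.4 points, adjusted p = 0.0459). RefSeq positions used here give no exons, so these are placed as within the gene or its flank only.

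**Figure D5:**
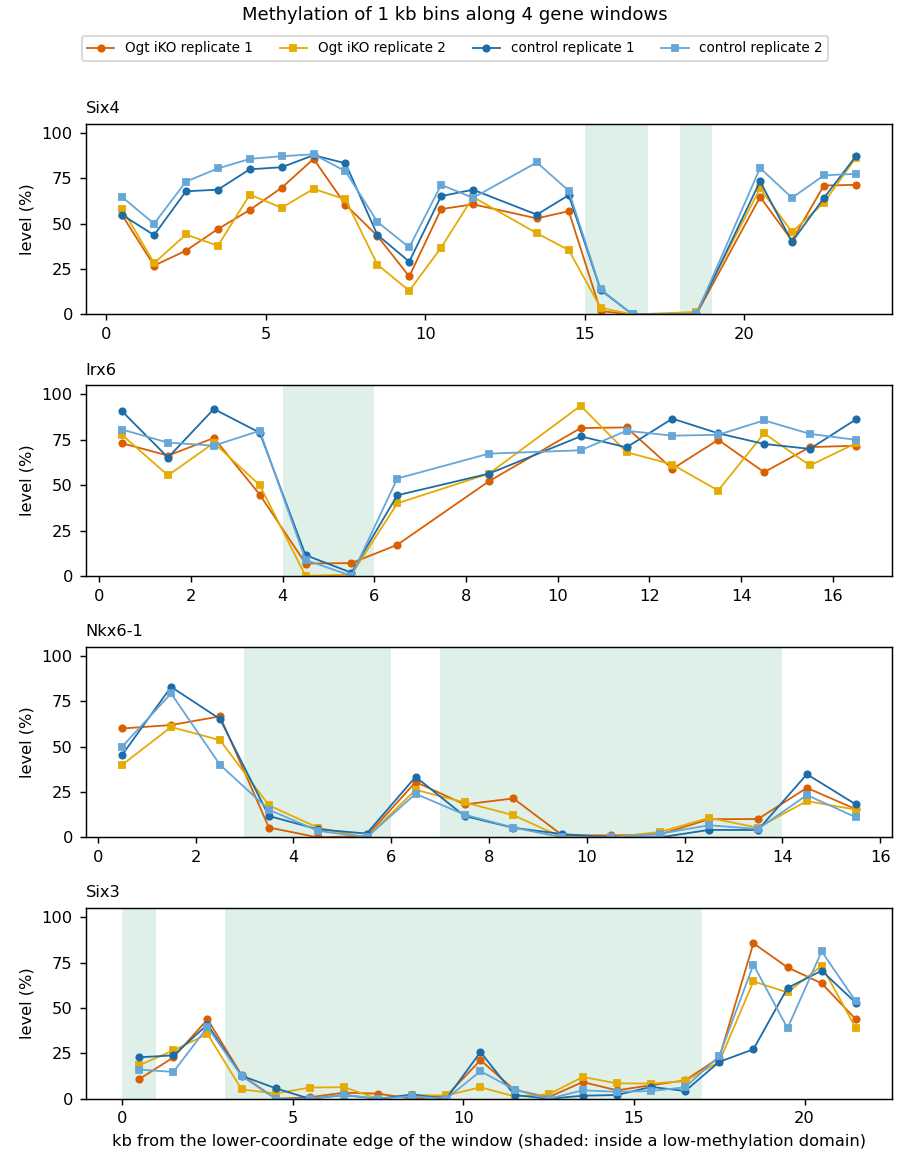
Methylation level in percent (y) of 1 kb bins along 4 gene windows (x, kb from the lower-coordinate edge), 1 line per library, with bins inside low-methylation domains shaded. At Six4 and Irx6 most iKO points outside the shading lie under the controls and the lines of all 4 libraries drop towards 0 within it; at Nkx6-1 and Six3, which are mostly shaded, the lines cross. Lines bridge bins without a level, which have no points.

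The cofactors of these families are given beside them, in a list of 19 genes: Eya and Dach genes (Six-family partners), Ldb, Lmo and Ssbp genes (LIM-domain partners) and Tle corepressors. The window difference was below 0 in 18 of 19, its median was -7.60 points, and groups were apart with iKO lower in 17, against 85.8% of all windows. On the adjusted p alone 14 passed, against 45.4% of all windows. With the limit of 10 points 0 were called, against 14.5%, the largest difference being -9.44 points at Eya1 (69.8% and 65.9% against 75.1% and 79.5%). Ssbp4 was the 1 gene above 0, with 17.8% and 21.7% against 19.7% and 19.1%.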

How the data were processed

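Per the submitters' processing notes, the authors used BSMAP, Picard and the mm10 build; versions and the handling of duplicates are not given in the sources used here. Per the file headers, each deposited table gives for 1 library the counts of methylated and of all C or T reads at each CpG, with both strands merged. It also gives an effective depth, an estimated count that need not be whole because the authors corrected it for C/T variants, and the methylation level as a fraction, as deposited. Lambda spike-in reads were not analysed here.

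Methylated and total counts were joined over 20677079 CpGs (Python 3.11.15, NumPy 2.4.6, pandas 2.3.3, PyArrow 21.0.0), and levels were pooled over the 16341360 CpGs that all libraries had read at least once. A bin had a level with at least 3 such CpGs and 10 reads in every library. Two-sided exact permutation tests served for single values per library. Windows of genes with 5 kb flanks (at least 20 CpGs; member windows held 362 to 8456 reads per library) and bins (at least 5 CpGs) were tested genome-wide with a quasi-binomial logistic model, group being the only term. Its Pearson dispersion, with a floor of 1, was moderated with limma 3.58.1 for an F test and Benjamini-Hochberg adjustment (R 4.3.3). Calls needed an adjusted p under 0.05 and 10 points or more between the group means. edgeR 4.0.16 and limma on logit levels (0.5 reads added) were alternatives. On simulated data with 100 features changed at each size, windows changed by 30 and 60 points were recovered in 69% and 98% of cases with 0 false calls, and 1 kb bins in 0%. Far fewer windows were altered there than passed the adjusted p in the data (45.4%), and no smaller change was simulated. The simulation therefore does not show how often windows with the differences reported here could be called.

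Gene positions and promoter sequences came from RefSeq (GRCm38.p6, which mm10 names). Starts of 33 members came from its promoter table; for the other 8 the CpG-denser gene end was used, which may not be the start. All 517 deposited positions in the 250-base member stretches fell on a CG.

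The genes, the cofactor list and the tests were chosen with earlier results of these data known. Named by rule were, per family, the 2 most negative windows and the least negative or most positive one, and called windows and bins; other genes were named after their values were seen. Comparisons with other genes, the bins beside each gene's domains and the grouping by domain length were added after seeing the data. Deviations of same-numbered libraries had a correlation of -0.0570 over 21252 windows, so no pairing by replicate number was seen. With 2 libraries per group, this cannot settle whether same-numbered libraries were handled together. Fragments span neighbouring CpGs and were not tagged with molecular identifiers, so read numbers overstate precision.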

Additional observations from a re-analysis of the deposited data

How the results depend on the processing

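Depth and the 2 libraries per group both limited the results. Only 198 member CpGs had at least 5 reads in every library, 18 of them directly outside a domain border, and values at that minimum are given only for completeness. Of 458 alternatives over 32 summary results, 420 kept the direction and, for counts, stayed within 1.5 times. That number overstates the stability. It includes averaging the differences within replicate numbers, which cannot change a difference of levels. It also includes leaving out CpGs over 5 times the median depth, which left the members' own levels unchanged.

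The direction turned at that 5-read minimum for the member difference from other genes directly outside the border (-7.41 points), the Irx windows (7.06), bins with at least 40 CpGs (-2.18), bins inside at 5 kb or more (2.27) and bins outside at 4 kb (4.61). Bins with at least 40 CpGs, at nearly 0, also turned with all listed CpGs (-0.127) and with reads thinned to the shallowest library (-0.0604). Bins under 20%, fewer by 4 in iKO cells as reported, turned with thinning (2.50), were 0 apart at the 5-read minimum and with a 30% limit, and differed by -17 with a 10% limit, -1.50 with all listed CpGs and -0.50 as an unweighted mean. Bins inside at 3 kb turned as an unweighted mean over CpGs (-0.258). With other domain rules, bins inside at 4 kb turned under a 10% limit (-1.58), and bins inside at 5 kb or more turned under a 30% limit (0.935) and with domains from the controls alone (1.79).

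With each library left out, the direction also turned for bins with at least 40 CpGs (-0.318 to 0.348), bins inside at 3 kb (-0.285 to 0.620) and at 5 kb or more (-1.53 to 1.15), bins outside at 1 kb (-3.61 to 0.475), gene starts (-1.19 to 0.293) and the number of bins under 20% (-16.5 to 8.50). The causes were not tested. In those fits a group's single library was taken to vary as much as the group with 2.

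The number of called member windows, 2, is given beside the share of all windows called, 14.5% in the reported test. It was 6 without the size limit (45.4% of all), 0 counted from the median of all windows (0.174%), 0 to 5 with each library left out (0 without iKO replicate 2, 4.48%; 5 without control replicate 1, 32.5%), 0 of 2 tested at the 5-read minimum (20%), 1 without flanks (13.2%) and 4 with 10 kb flanks (15.1%). Six4 and Irx6 both lost their calls when counted from that median and without iKO replicate 2. Called member bins were 12 of 698 with 2 kb bins, all lower, against 1.77% of all tested. Although no pairing by replicate number was seen, a replicate block was run: it called 1 member window, Six4, and 1966 windows in all, against 3075 without it, and Irx6 was not called (adjusted p = 0.0563). For pooled levels, the mean of the differences within replicate numbers equals the difference of the group means by construction. The block is therefore no check of those levels.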
